A study of Bos taurus with 12 samples.

Results

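Granulosa and theca, the 2 cell layers of the bovine ovarian follicle, were compared within follicles of medium size (5 to 10 mm). The members were the 4 arrays whose titles name medium follicles, 2 of granulosa and 2 of theca, out of 12 arrays in the series. The other 8 arrays held the same layers of small (up to 5 mm) and large (over 10 mm) follicles. Each array read biotin-labelled total RNA pooled, per the labels, from 20 to 40 follicles of 1 size. The ovaries came from young cycling, nonpregnant heifers, were kept on ice and carried no corpus luteum. All groups were untreated. The design text speaks of pools from 6 to 10 animals and calls the replicates biological, so the spread given here is that between pools. It counts 20 to 40 ovaries where the protocol counts follicles, and whether pools shared animals is not stated. A layer taken from a follicle is a mixture, and in such bulk RNA fewer cells of a type and less RNA per cell cannot be told apart.

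Granulosa cells form the inner epithelium of the follicle and surround the oocyte. They respond to follicle stimulating hormone, turn androgen into oestradiol with aromatase, and secrete inhibin and activin. They hold no blood vessels. A basement membrane separates them from the theca, whose inner part makes androgen under luteinising hormone and carries the capillaries, and whose outer part is fibrous and contractile.

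Values are array signals in arbitrary units, 1 per probe set and array. A change is the granulosa mean minus the theca mean on the log2(signal + 16) scale, ± the standard error (SE) of a limma model over the 12 arrays, with n = 2 arrays per layer. The fold of a dim gene is understated on this scale. A probe set was called at a limma adjusted p (Benjamini-Hochberg) under 0.05 over the 17236 probe sets tested. Where several probe sets read a gene, the brightest over the 12 arrays stands for it. A call is said below to hold where it stayed past the threshold without any 1 of the 12 arrays.

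The layers were told apart by their defining genes, and these followed the titles. KRT18, a keratin of epithelial cells, gave 1317.5 and 801.1 in granulosa replicates 1 and 2, against 82.9 and 75.9 in theca. CYP17A1, the enzyme that makes androgens, gave 75.8 and 65.1 in granulosa against 2935.6 and 3859.7 in theca. The description field of all samples names theca, so it goes against these values for the granulosa arrays. Replicates correlated with Spearman coefficients of 0.928 in granulosa and 0.948 in theca, and the layers with 0.866 to 0.895. Under 1% of values were identical between replicates (0.595% and 0.625%), so no array was a copy. The arrays that stood apart in the series, theca small replicate 1 and granulosa large replicate 1, are not medium arrays. In the medium contrast they enter the estimate of spread, the filter and the choice of the brightest probe set, but not the means compared. In the comparisons with small and large follicles they enter the means. Theca small replicate 1 had a GAPDH 3'/5' ratio of 8.36 and granulosa large replicate 1 an actin ratio of 21.0.

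In medium follicles 1034 probe sets were called, 6% of those tested. Of these 308 (1.79%) were higher in granulosa and 726 (4.21%) were lower in granulosa, that is, higher in theca. The counts of each gene list below are to be set against these shares. All 1034 differed by at least 2-fold, and 494 by at least 4-fold, of which 396 were lower in granulosa. The median change was 1.72 among the higher calls and -2.09 among the lower ones, against 0.08 over all probe sets tested. The arrays of the layers did not overlap for 52.9% of probe sets tested, with granulosa above for 30.4% and below for 22.5%, so lack of overlap alone marked few genes out here. The higher calls rested more on single arrays: 17 of 308 stayed called without each of the 4 medium arrays in turn, against 271 of 726 lower calls. Without theca medium replicate 2 the counts were 25 higher and 335 lower, and without granulosa medium replicate 2 they were 74 and 352. Theca medium replicate 2 had an actin 3'/5' signal ratio, a sign of RNA quality, of 7.57 against 3.76 to 4.25 on the other medium arrays, and its part in the calls was not tested. Without theca medium replicate 1 the counts were 137 and 365. Leaving out both arrays that stood apart raised them to 605 and 995, and without granulosa medium replicate 1 they were 181 and 550. With a pseudocount of 1 in place of 16 they were 164 and 542.

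**Figure D1:**
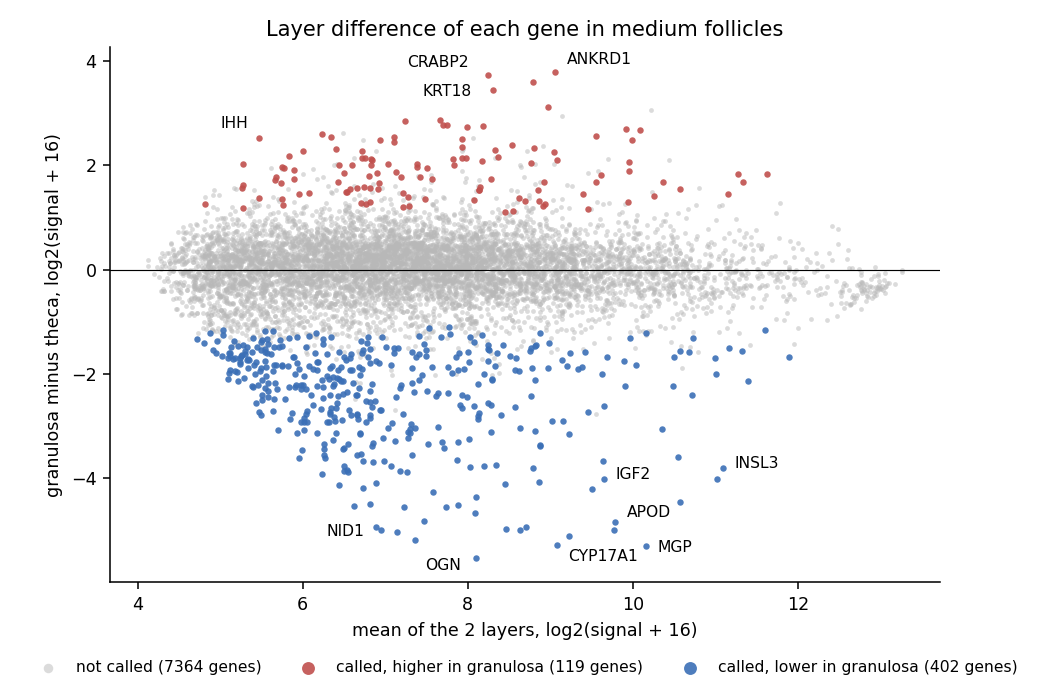
Each point is 1 gene; the x axis is the mean level of the layers and the y axis granulosa minus theca, both on the log2(signal + 16) scale. The 402 genes called lower in granulosa (blue) reach -5.53 (OGN), while the 119 called higher (red) end at 3.80 (ANKRD1).

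Theca markers were low in granulosa. Of 11 tested, 7 were called lower in granulosa and 0 higher (median -2.76 over the 12 measured). CYP17A1 differed by -5.29 ± 0.57 (adjusted p = 7.58e-05), or 39.2-fold on the signal + 16 scale. INSL3, a peptide hormone of theca cells, gave 315.7 and 995.0 in granulosa against 7810.6 and 8462.6 in theca, a change of -3.81 ± 0.47 (adjusted p = 0.000223). APOD, a lipid carrier, gave 123.8 and 175.8 against 4778.3 and 4603.7 (-4.85 ± 0.39, adjusted p = 1.21e-05). The arrays of the layers lay far apart for all of these. The transcription factor TCF21 differed by -4.08 ± 0.37 and the nuclear receptors NR2F2 and NR2F1 by -3.10 ± 0.30 and -2.41 ± 0.35. All 7 calls held, and the list kept 7 lower calls under each alternative run.

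Granulosa markers were higher in granulosa in 7 of 18 and lower in 0, with a median of 1.37. KRT18 differed by 3.45 ± 0.40 (adjusted p = 0.000113). NR5A2, a nuclear receptor of granulosa and luteal cells, gave 723.8 and 748.9 in granulosa against 140.6 and 62.9 in theca (2.76 ± 0.45, adjusted p = 0.00188). These calls held. The cell adhesion molecule N-cadherin, CDH2, gave 1848.3 and 1167.9 against 336.7 and 66.3 (3.12 ± 0.64, adjusted p = 0.0096). IHH, a hedgehog ligand secreted by granulosa cells, gave 54.3 and 146.7 against 4.6 and 0.7 (2.53 ± 0.68, adjusted p = 0.0434). For IHH both theca arrays were below the filter level of 22.5. KRT8, the partner of KRT18, was also called at a low level (1.56 ± 0.42, adjusted p = 0.0445).

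The hormone genes of granulosa gave a mixed picture. Aromatase, CYP19A1, gave 3113.9 and 1819.7 in granulosa and 911.6 and 183.8 in theca, a change of 2.48 ± 0.63 (adjusted p = 0.0325). INHBA, the subunit of activin A, gave 6564.5 and 5362.2 against 2846.9 and 955.9 (1.83 ± 0.50, adjusted p = 0.0443). For both genes the theca replicates differed more from each other than the granulosa replicates did. The FSH receptor, FSHR, gave 107.8 and 331.8 against 50.3 and 16.9 (2.15 ± 0.64, adjusted p = 0.0646), and was not called. Anti-Mullerian hormone, AMH, gave 130.0 and 615.7 against 72.6 and 106.0 (1.55 ± 0.57, adjusted p = 0.149), with most of the gap in granulosa replicate 2. The arrays did not overlap for these 4 genes, a pattern shared by 52.9% of probe sets tested.

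CYP19A1, INHBA, CDH2, IHH and KRT8 lost their calls without theca medium replicate 2. CYP19A1 and INHBA also lost them without either medium or either small granulosa array. They did so too with a pseudocount of 1 (adjusted p = 0.112 and 0.117) or 64 (0.0557 and 0.0622). No filter ended both calls as well (0.0629 and 0.0729). KRT8 lost its call when any 1 medium array was left out, and CDH2 also without granulosa medium replicate 1. IHH also lost its call without granulosa medium replicate 2 or theca medium replicate 1. A pseudocount of 64 ended the calls of KRT8 and IHH (0.131 and 0.287), as did no filter (0.0646 and 0.0825). Quantile normalization ended both too (0.0589 and 0.0634). A pseudocount of 1 ended those of KRT8 (0.118) and CDH2 (0.0504). FSHR and AMH were called without granulosa medium replicate 1, and FSHR also without either small theca array, with median centring, without the pair of arrays that stood apart and with only the medium arrays in the fit. Without theca medium replicate 2 the granulosa list had 2 higher calls, and without granulosa medium replicate 2 it had 3.

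Several genes often used to mark granulosa or steroid cells were not called. CYP11A1, which makes pregnenolone from cholesterol, gave 2823.9 and 2981.9 in granulosa and 2652.9 and 3067.9 in theca. Its change was 0.02 ± 0.39 with a 95% interval from -0.80 to 0.85, which lies within 2-fold either way. INHA, the alpha subunit of inhibin, gave 7520.7 and 6623.7 against 6865.9 and 4317.3 (interval -0.51 to 1.25). Follistatin, FST, which binds activin, gave 7409.2 and 7117.7 against 5665.1 and 2939.7 (interval -0.18 to 1.83). STAR, which carries cholesterol into mitochondria, gave 2781.6 and 810.7 against 731.5 and 1480.8, and its arrays overlapped (interval -0.91 to 1.96). HSD3B1, which makes progesterone and androstenedione, gave 2300.4 and 1264.2 against 1289.2 and 1056.3 (interval -0.25 to 1.34). HSD17B1, which turns oestrone into oestradiol, gave 673.9 and 3113.2 in granulosa against 749.4 and 733.1 in theca, so that a single granulosa array stood above the rest. The receptor of luteinising hormone, LHCGR, was dim in both layers, at 8.0 and 21.9 against 49.1 and 40.5 (-1.01 ± 0.36, adjusted p = 0.129).

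**Figure D2:**
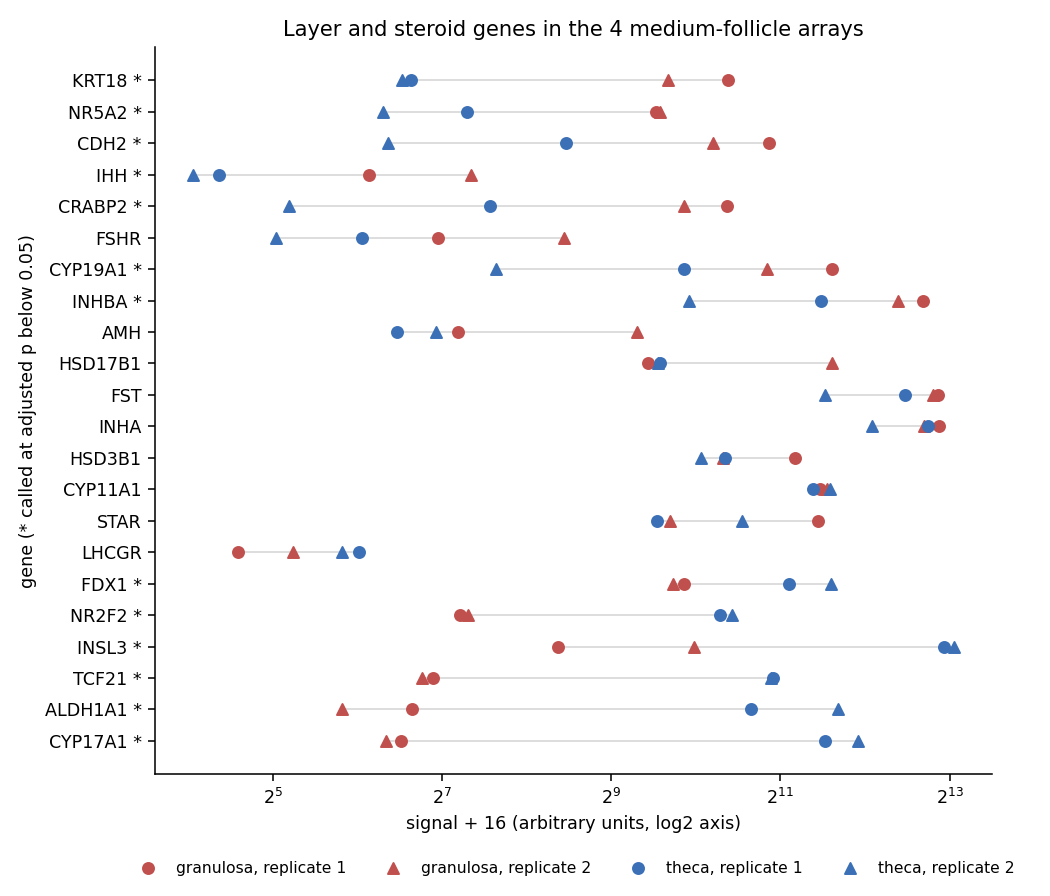
Signal plus 16 on a log2 axis for 22 genes in the 4 medium arrays; red marks granulosa and blue theca, circles replicate 1 and triangles replicate 2. Theca genes such as CYP17A1 and INSL3 are separated on all arrays, CYP11A1 sits between 2652.9 and 3067.9 on all 4, and CYP19A1 in theca runs from 183.8 to 911.6.

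Of 18 tested genes of steroid synthesis, 2 were higher and 2 lower in granulosa, with a median of 0.02 over those measured. The higher calls were CYP19A1 and NR5A2, and the lower ones CYP17A1 and FDX1. FDX1, the ferredoxin that supplies electrons to mitochondrial steroid enzymes, gave 911.1 and 831.5 in granulosa against 2187.7 and 3078.8 in theca (-1.56 ± 0.31, adjusted p = 0.00794). Its call was lost without granulosa or theca medium replicate 2. Steroidogenic factor 1, NR5A1, was not called (-0.36 ± 0.42). Of 20 genes of cholesterol supply 3 were higher and 0 lower (median 0.57). They were LSS, which closes the sterol ring (2.54 ± 0.45, adjusted p = 0.0038), SOAT1, which esterifies cholesterol (1.46 ± 0.37), and NPC1, which exports it from lysosomes (1.11 ± 0.30). None of these 3 calls held, and without granulosa medium replicate 2 all were lost.

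The insulin-like growth factor (IGF) system divided between the layers. IGF ligands act through IGF1R and INSR, and binding proteins limit or carry them. Of 12 genes tested 3 were higher in granulosa and 4 lower. IGF2 gave 168.8 and 200.6 in granulosa against 3040.1 and 3393.8 in theca (-4.01 ± 0.37, adjusted p = 3.01e-05). IGFBP3 gave 53.4 and 35.9 against 1398.7 and 1069.7 (-4.37 ± 0.39), and IGFBP6 gave 139.3 and 168.8 against 3161.9 and 3045.4 (-4.20 ± 0.43). IGFBP4 gave 212.2 and 305.9 against 1625.4 and 1965.1 (-2.73 ± 0.47, adjusted p = 0.00256). These theca transcripts agreed closely between replicates, and the 4 calls held. On the granulosa side the receptor IGF1R gave 108.0 and 262.0 against 21.5 and 8.7 (2.61 ± 0.52, adjusted p = 0.00807). INSR gave 197.9 and 314.1 against 63.7 and 37.0 (2.03 ± 0.43, adjusted p = 0.0108), and IGFBP5 gave 430.7 and 451.5 against 153.6 and 60.2 (2.01 ± 0.46, adjusted p = 0.0188). These 3 calls were lost without theca medium replicate 2 (adjusted p from 0.114 to 0.302) and without granulosa medium replicate 2. IGF1 was not called (1.56 ± 0.57, adjusted p = 0.142). Of the 4 IGF2 probe sets a second bright one gave -4.40, and a dim one gave 0.86. The second IGF1R probe set gave 0.39.

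Retinoid genes also stood on both sides. ALDH1A1, which makes retinoic acid, gave 84.3 and 40.3 in granulosa against 1594.0 and 3277.2 in theca (-4.94 ± 0.51, adjusted p = 5.41e-05). RARRES1, a gene named for its response to retinoic acid, gave 151.6 and 45.6 against 4461.3 and 2748.6 (-5.11 ± 0.53). In the other direction CRABP2, which carries retinoic acid to the nucleus, gave 1309.0 and 917.4 against 173.1 and 20.5 (3.74 ± 0.60, adjusted p = 0.00162). Calls of these 3 genes held. STRA6, a receptor that takes up retinol, gave 1740.7 and 4290.4 in granulosa against 399.1 and 426.3 in theca (2.68 ± 0.59, adjusted p = 0.0144), a call lost without 3 of the medium arrays. CRABP1, a cellular retinoic acid binding protein, was lower at a low level (-1.66 ± 0.35), a call lost when any 1 medium array was left out (adjusted p from 0.0507 to 0.0925) and with a pseudocount of 64 (0.0674). Of 13 retinoid genes tested, 2 were higher and 3 lower, with a median of -0.20 over those measured, and the receptors RXRA, RXRB and RARA lay between -0.27 and 0.01.

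Among 24 genes of the transforming growth factor beta, activin and BMP families, 1 was higher (INHBA, 4.17%) and 5 lower (20.8%). Over all probe sets tested these shares were 1.79% and 4.21%. The list median was 0.5 over those measured. Of these 13 lay above theca on both granulosa arrays and 7 below (30.4% and 22.5% of all probe sets tested). The genes called lower were the ligands TGFB2 (-1.48 ± 0.35) and TGFB3 (-1.32 ± 0.36), the receptor TGFBR2 (-1.77 ± 0.39) and the latency proteins LTBP1 and LTBP2 (-1.55 and -1.78). None of these 5 calls held, and without granulosa medium replicate 2 all were lost. ID1, a target of BMP signalling, gave 205.1 and 165.1 in granulosa against 2060.3 and 1524.9 in theca (-3.16 ± 0.39, adjusted p = 0.000223), and held. Its relatives ID2 and ID3 were not called (0.29 and -0.61). In the WNT list 1 of 17 was higher (TCF7, 1.54 ± 0.38) and 6 lower. FRZB, a secreted WNT inhibitor, gave 17.8 and 19.3 against 303.7 and 284.2 (-3.16 ± 0.41, adjusted p = 0.000309), the WNT call that held. RSPO3, which enhances WNT signalling, differed by -2.27 ± 0.42 and lost its call without theca medium replicate 1 (adjusted p = 0.059).

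Genes of the fibrous wall had the most negative median of the 38 lists. Among 15 markers of fibroblasts and stroma, granulosa was lower for 10 and higher for 0 (median -3.55). OGN, the proteoglycan osteoglycin, gave 51.2 and 8.2 in granulosa against 1608.2 and 2107.9 in theca (-5.53 ± 0.54, adjusted p = 3.85e-05). DPT, a matrix protein of fibroblasts, differed by -4.56 ± 0.56 and ASPN, a proteoglycan, by -4.50 ± 0.67. COL1A1, a chain of type I collagen, gave 266.1 and 69.9 against 4976.1 and 4859.7 (-4.99 ± 0.51, adjusted p = 5.41e-05). For the other chain of that collagen, COL1A2, granulosa replicate 1 gave 5069.4 and replicate 2 gave 1134.9, against 6707.6 and 6332.8 in theca (-1.43 ± 0.56, adjusted p = 0.172). LUM, lumican, showed the same split, with 983.0 and 67.1 in granulosa against 1675.7 and 2280.4 (-2.77 ± 0.79, adjusted p = 0.0541). Both were called without granulosa medium replicate 1.

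Elastic fibre genes had the highest share of calls of the 38 lists, 13 of 15 lower and 0 higher (median -3.03). MGP, matrix Gla protein, gave 307.4 and 86.9 in granulosa against 6848.2 and 7495.3 in theca (-5.30 ± 0.82, adjusted p = 0.00119), while its 3 dim probe sets gave -0.13 to 0.33. FBLN5, which links elastic fibres to cells, gave 64.9 and 32.3 against 2129.8 and 1801.8 (-4.98 ± 0.38, adjusted p = 1.03e-05). LOX, which cross-links elastin and collagen, gave 3.4 and 3.1 against 220.2 and 173.4 (-3.46 ± 0.36). MFAP5 (-3.55), FBLN1 (-3.31), EMILIN1 (-3.22) and EFEMP2 (-3.03) followed, and all calls named so far in this list held. Elastin itself, ELN, differed by -2.77 ± 0.62 and lost its call when any 1 medium array was left out. Without theca medium replicate 1 the list had 8 lower calls.

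Of 14 collagen genes 7 were lower, among them COL15A1 (-4.56 ± 0.46), COL3A1 (-4.01 ± 0.53), COL6A1 (-3.80 ± 0.39) and COL11A1 (-2.68 ± 0.39), whose calls held. COL4A1, of basement membranes, gave 1427.5 and 710.6 in granulosa against 4131.7 and 4092.9 (-2.01 ± 0.42) and did not hold. In the basement membrane list 4 of 13 were lower and 0 higher. NID1, nidogen, which joins laminin to type IV collagen, gave 3.1 and 8.9 in granulosa against 565.6 and 820.1 in theca (-5.00 ± 0.40, adjusted p = 1.03e-05). SPARCL1, an antiadhesive matrix protein, gave 84.9 and 32.9 against 1768.5 and 2800.5 (-5.00 ± 0.52). The median of that list was -0.28, since 9 members were not called, such as the laminin chains LAMC1 (0.07 ± 0.34) and LAMB1 (-1.17 ± 0.48, adjusted p = 0.194). Of 13 proteoglycan genes tested 7 were lower and 0 higher, including DCN, decorin (-3.59 ± 0.47), SDC2, a syndecan (-2.91 ± 0.46), and BGN, biglycan (-2.63 ± 0.42), which held. Among 25 proteases and inhibitors 4 were lower (16%) and 0 higher, while the median was 0.16 over those measured. Of these 9 lay above theca on both granulosa arrays and 9 below. The genes called lower were ADAMDEC1 (-5.19 ± 0.38), ADAMTS4 (-3.84 ± 0.54), MMP2 (-3.38 ± 0.62) and ADAMTS1 (-1.65 ± 0.38). The first 2 held. ADAMDEC1, a metalloprotease-like protein, gave 14.6 and 8.4 in granulosa against 889.2 and 1076.8 in theca.

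**Figure D3:**
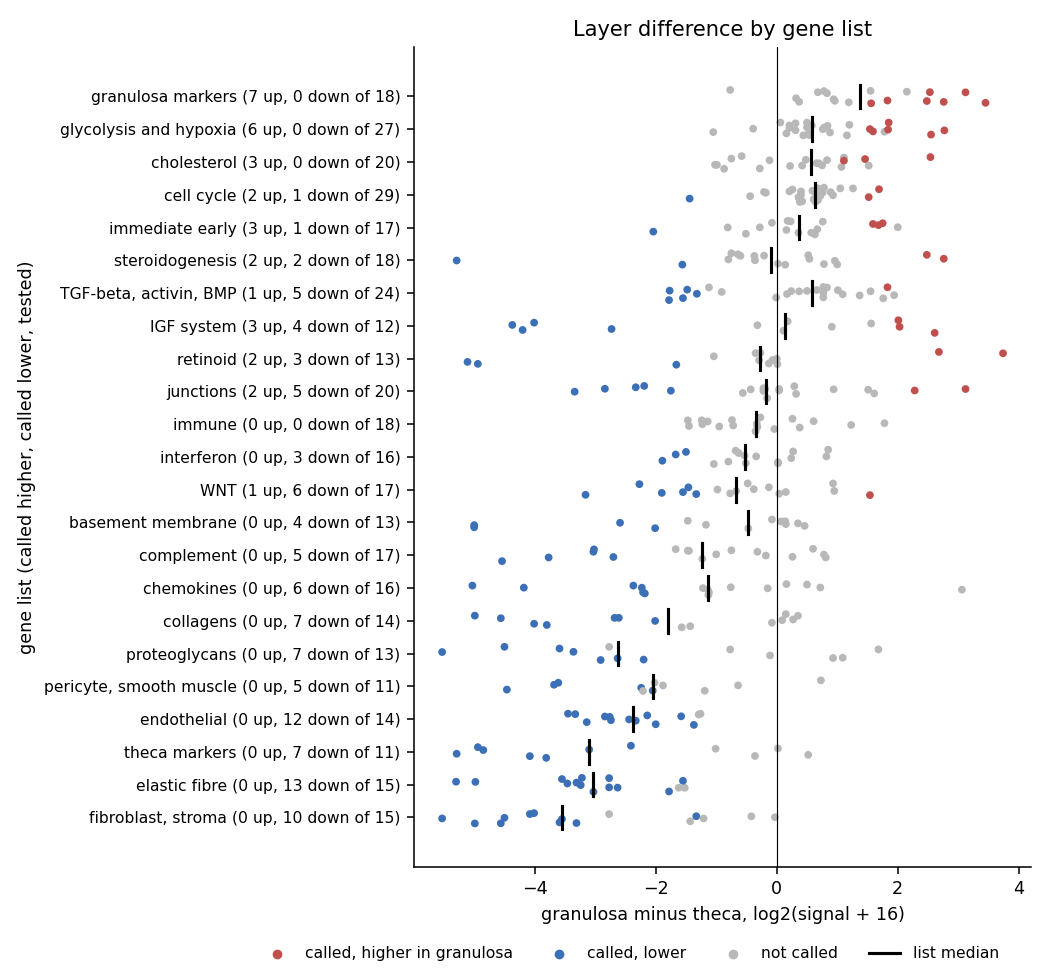
Each point is a tested gene placed by granulosa minus theca on the log2(signal + 16) scale, in 23 lists; red and blue points were called higher and lower in granulosa and grey ones were not called, and the bar is the median of the tested genes. Fibroblast, elastic fibre and endothelial genes lie left of 0, as do theca genes other than STAR (0.52) and CYP11A1 (0.02), and granulosa markers lie mostly right of it.

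Vessel genes were low in granulosa. Of 14 endothelial markers tested 12 were lower and 0 higher (median -2.33 over the 15 measured). ENG, an endothelial receptor of the TGF-beta family, gave 38.2 and 8.5 in granulosa against 361.1 and 340.7 in theca (-3.33 ± 0.45, adjusted p = 0.000432). TEK, the angiopoietin receptor, gave 20.1 and 10.9 against 191.2 and 192.6 (-2.74 ± 0.32, adjusted p = 0.000147). PECAM1, an adhesion molecule of endothelium, gave 22.4 and 23.1 against 257.8 and 235.8 (-2.76 ± 0.45, adjusted p = 0.00197). EMCN, SOX18, CDH5 and CLDN5 differed by -3.45, -3.14, -2.84 and -2.33, and these 7 calls held. The summed endothelial signal was 305.8 and 203.5 in granulosa against 2572.5 and 2231.0 in theca. VWF, ROBO4 and TIE1 lost their calls when any 1 medium array was left out, and the list had 8 lower calls without granulosa medium replicate 2.

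Of 11 pericyte and smooth muscle markers 5 were lower and 0 higher. RGS5, a marker of pericytes, gave 7.2 and 5.1 in granulosa against 201.0 and 322.0 in theca (-3.61 ± 0.32, adjusted p = 1.8e-05). ACTA2, smooth muscle actin, gave 682.6 and 135.1 against 7727.4 and 6625.5 (-4.46 ± 0.60, adjusted p = 0.000426), and MYLK, the myosin light chain kinase, differed by -3.68 ± 0.42. These 3 calls held, while MYH11 (-2.24 ± 0.50) and KCNJ8 (-2.05 ± 0.42) lost theirs without granulosa medium replicate 1 or either theca array. Without granulosa medium replicate 1 the list had 3 lower calls.

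VEGFA, the main growth factor for vessels, went the other way. It gave 446.5 and 666.7 in granulosa against 61.1 and 71.6 in theca (2.77 ± 0.58, adjusted p = 0.0109). It was the 1 called gene among 23 angiogenic factors and receptors. That is 4.35% of the list, near the 6% called over all probe sets tested. The second VEGFA probe set gave 1.61 and was not called. The receptor FLT1 was dim (-1.29 ± 0.46, adjusted p = 0.127). With only the medium arrays in the fit 3 genes of the angiogenic list were lower, among them FLT1 (adjusted p = 0.0279). That fit called 906 of all 17236 probe sets lower. In the list of glycolysis and hypoxia genes 6 of 27 were higher and 0 lower (median 0.58). SLC2A3, a glucose transporter, gave 169.1 and 193.3 in granulosa against 29.4 and 9.0 (2.55 ± 0.38, adjusted p = 0.000848), and held. SLC16A3, which exports lactate, differed by 1.85 ± 0.48, the vasodilator peptide ADM by 1.84 ± 0.50, PFKFB3, which drives glycolysis, by 1.59 ± 0.36, and DDIT4, induced by low oxygen, by 1.54 ± 0.37. VEGFA lost its call without granulosa replicate 2 or either theca array (highest adjusted p = 0.107). Without granulosa or theca medium replicate 2 the list kept only 1 higher call.

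Of 18 markers of white blood cells 0 were called. Over all probe sets tested the share called was 6%, so 0 calls in so short a list is near that share. The median was -0.34, with changes from -1.47 (C1QB) to 1.78 (S100A12). By limma 5 of the 18 had an unadjusted p under 0.05, and trend and robust moderation called 0 as well. Other settings made calls: with only the medium arrays in the fit C1QA, C1QB and C1QC were lower (adjusted p from 0.03 to 0.0388), and C1QA and C1QB were also lower without either large granulosa array or without both arrays that stood apart. Without granulosa medium replicate 1 the list had 1 lower call, and without theca medium replicate 1 S100A12 was higher (adjusted p = 0.0263). S100A12, a calgranulin of neutrophils and monocytes, had the lowest adjusted p (0.0797), with 204.0 and 73.4 in granulosa against 57.6 and 6.6 in theca. The summed signal of that list was 1737.1 and 797.8 in granulosa and 2058.9 and 1429.6 in theca. Replicate 1 was above replicate 2 for 17 of the 18 genes in granulosa and for 15 in theca. Of 3 red cell genes 0 were called (0 at an unadjusted p under 0.05), too few genes to set against the share of 6%. Among oocyte genes 1 of 5 tested was lower in granulosa, namely OOEP, known from oocytes and embryos, with 6.8 and 3.9 against 107.7 and 75.9 (-2.32 ± 0.38, adjusted p = 0.00192). ZP2 and ZP3 stayed under 30 in every array.

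Some genes of secreted immune proteins were lower in granulosa. Of 16 chemokine genes 6 were lower and 0 higher (median -1.12 over those measured). Changes ran from -5.03 to 3.06, the latter in a gene that was not called. Of those measured 1 lay above theca on both granulosa arrays and 11 below. The summed signal of the list was 7619.3 and 2328.0 in granulosa against 5062.0 and 3203.1 in theca. CXCL14 gave 11.5 and 6.4 in granulosa against 573.3 and 1096.4 in theca (-5.03 ± 0.48, adjusted p = 3.43e-05), and CCL14 gave 17.1 and 2.7 against 575.4 and 328.6 (-4.18 ± 0.40). Those calls held, while CXCL12, CXCL10, CCL21 and ACKR3 did not, and without theca medium replicate 1 the list had 2 lower calls. Of 17 complement genes 5 were lower and 0 higher, and all 5 held. C7, of the membrane attack complex, gave 0.5 and 9.4 in granulosa against 475.9 and 444.3 in theca (-4.54 ± 0.43, adjusted p = 3.43e-05). C4A differed by -3.77 ± 0.45, the inhibitor SERPING1 by -3.03 ± 0.41, and C1S and C1R by -3.02 and -2.70. The C1q chains C1QA, C1QB and C1QC, made by macrophages, were not called with all 12 arrays in the fit (-1.45, -1.47 and -1.23). Of 16 interferon response genes 3 were lower, namely PSMB9, PSMB8 and B2M of antigen presentation (-1.89, -1.50 and -1.67), and without theca medium replicate 1 there were 0.

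Adhesion genes differed in both directions, 2 of 20 higher and 5 lower. E-cadherin, CDH1, gave 200.0 and 76.8 in granulosa against 19.9 and 7.6 in theca (2.28 ± 0.43, adjusted p = 0.00512). It stood with CDH2 on the granulosa side, whereas CDH3, CDH5, CDH11, CLDN5 and CLDN11 were lower there (-2.19, -2.84, -1.75, -2.33 and -3.34). GJA1, the main gap junction protein of granulosa, was not called, with 5858.3 and 5925.1 against 4909.5 and 4543.7 (0.32 ± 0.30). SPP1, osteopontin, gave 3118.7 and 752.1 in granulosa against 200.7 and 58.2 in theca (3.61 ± 0.72, adjusted p = 0.00794). The collagen receptor subunit ITGA2 was higher (1.97 ± 0.47) and the subunit ITGB3 lower (-2.09 ± 0.37). Of these CDH3, CDH5 and CLDN5 held. SPP1 and CDH1 lost their calls without theca medium replicate 2 (adjusted p = 0.132 and 0.0925).

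For the remaining lists the calls are counted beside the 6% of all probe sets tested that were called (1.79% higher, 4.21% lower). Some short lists lay above those shares, such as keratins (28.6% higher) and immediate early genes (17.6% higher). Others lay near or below them, such as antioxidant genes (0% higher, 3.85% lower). Of 29 cell cycle genes 2 were higher, CCND2 (1.69 ± 0.39) and BIRC5 (1.52 ± 0.40), and CCND3 was lower (-1.44 ± 0.37), while the median was 0.64 and 18 members lay above theca on both granulosa arrays against 1 below (30.4% and 22.5% of all probe sets tested). Cyclin D2 is the D-type cyclin known from proliferating granulosa. Of 17 immediate early genes ATF3 (1.75), JUN (1.68) and ZFP36 (1.59) were higher and KLF4 (-2.04) lower. Each of these 7 calls was lost without granulosa medium replicate 2, without theca medium replicate 2, or without each of them in turn. HSPB8, a small heat shock protein, differed by -3.45 ± 0.40 and held, while GSTM3, a glutathione transferase, differed by -2.13 ± 0.49 and did not. Of 12 apoptosis genes limma called 0 (1 at an unadjusted p under 0.05), and of 16 genes of gonadotrophin and cAMP signalling 0 (4 at that threshold); trend and robust moderation called 0 in both. In the second list FSHR was higher under the settings given above, and ADCY6, an adenylate cyclase, was higher too without either small theca array and without both arrays that stood apart, which made 2 higher calls. In the other lists 1 of 3 hedgehog genes was higher (IHH), 1 of 9 targets of YAP and TEAD was higher (ANKRD1) and 2 lower (TEAD3 and TGFB2), 1 of 7 Notch genes was lower (MFNG), and 1 of 12 ovulatory genes was lower (ADAMTS1). Of 7 keratins 2 were higher (KRT8 and KRT18), of 11 integrins and related genes 2 were higher and 1 lower, and 1 of 18 heat shock and 1 of 26 antioxidant genes were lower. Without theca medium replicate 2 none of the calls of the hedgehog, YAP and TEAD, ovulatory, integrin and antioxidant lists was left (TEAD3 at adjusted p = 0.0886), and MFNG lost its call without granulosa medium replicate 2 (0.0595) or theca medium replicate 1 (0.0865). KRT18 and HSPB8 held.

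Among named genes the largest higher calls not yet described were ANKRD1, SLC39A8, LRP8, PPARG, NT5E and SLC17A5. ANKRD1, an ankyrin repeat cofactor, gave 3496.7 and 1112.2 in granulosa against 366.5 and 37.6 in theca (3.80 ± 0.88, adjusted p = 0.0199). SLC39A8, a zinc transporter, differed by 2.88 ± 0.66, and LRP8, a lipoprotein receptor, by 2.85 ± 0.73. The second LRP8 probe set gave 0.48 and was not called. PPARG, a nuclear receptor of lipid metabolism, gave 288.5 and 950.8 against 84.4 and 47.2 (2.77 ± 0.74). NT5E, which makes adenosine, differed by 2.73 ± 0.71 (2.0 on its second probe set, not called), and SLC17A5, which exports sialic acid from lysosomes, by 2.70 ± 0.75. Each of these 6 calls was lost without theca medium replicate 2, but not only then. Without granulosa medium replicate 1 all but PPARG were lost, and without replicate 2 LRP8, PPARG and NT5E were lost. A pseudocount of 1 ended all 6 calls (adjusted p from 0.0642 to 0.145), and one of 64 all but that of ANKRD1. LRP8, PPARG, NT5E and SLC17A5 also lost theirs with no filter and without either small granulosa array. On the other side HPGD, which inactivates prostaglandins, gave 4.0 and 7.0 in granulosa against 416.4 and 984.8 in theca (-4.94 ± 0.43) and held.

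Probe sets without 1 gene symbol made up 143 of the 308 higher and 248 of the 726 lower calls. An unnamed probe set, picked after its values were seen, had the largest change of all: 18.1 and 16.9 in granulosa against 2258.8 and 2369.0 in theca (-6.12 ± 0.35). Of 171 called genes with several probe sets 0 had another probe set called the other way, and for 49 every probe set was called.

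Markers moved with single arrays as well as with the layers. The summed signal of the 18 granulosa markers was 43291.1 and 41322.9 in granulosa, and 28431.2 in theca replicate 1 against 17436.7 in theca replicate 2. On the theca arrays it rested largely on INHA, FST and GJA1, bright in both layers and not called. KRT18 gave 82.9 and 75.9 there. Theca replicate 1 exceeded replicate 2 for 16 of the 18 markers, with a median gap of 0.60 on the log2 scale, and for 253 of the 308 probe sets called higher in granulosa (median gap 0.41). Over all probe sets tested the median gap was 0.02. The summed signal of the 15 fibroblast markers was 9322.3 in granulosa replicate 1 and 2286.4 in replicate 2, against 33785.1 and 34268.4 in theca. On the granulosa arrays it rested largely on COL1A2, which was not called. The theca marker sum was 6832.4 and 5957.0 in granulosa against 24657.7 and 29238.4. On the granulosa arrays that sum rested largely on uncalled steroid genes: CYP11A1 gave 2823.9 and 2981.9 there and STAR 2781.6 and 810.7. Of the called theca markers CYP17A1 gave 75.8 and 65.1 on those arrays and INSL3 315.7 and 995.0. The part of these differences in the calls was not tested.

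**Figure D4:**
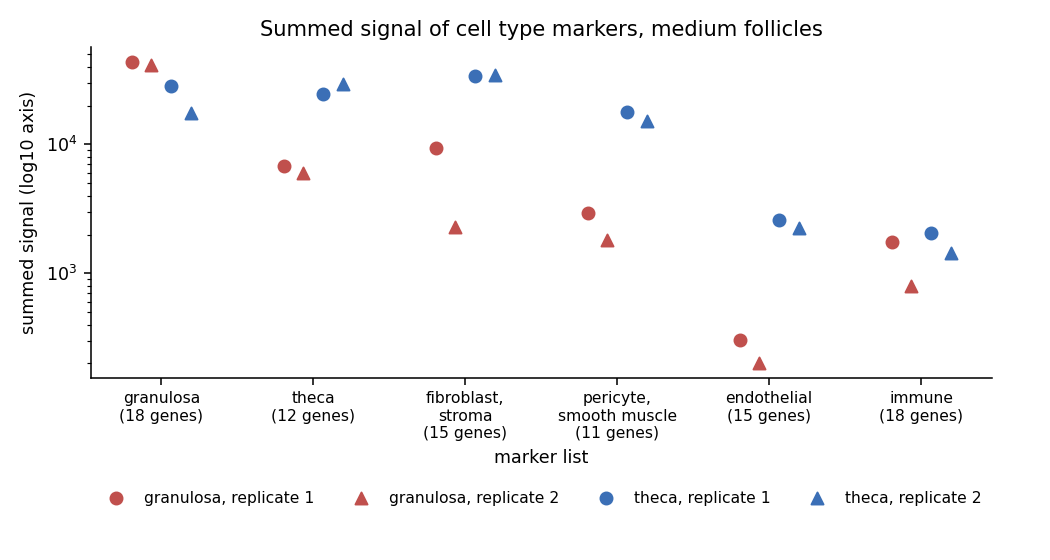
Summed signal of the genes of 6 marker lists on a log10 axis, 1 point per medium array; red marks granulosa, blue theca, circles replicate 1 and triangles replicate 2. Fibroblast markers sum to 9322.3 and 2286.4 in granulosa, and granulosa markers to 28431.2 and 17436.7 in theca. Both of these sums rest largely on genes that were not called.

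The same layer contrast was then set beside that in small and large follicles, whose arrays are separate but share the estimate of spread. Small follicles had 9.14% of probe sets called (4.06% higher, 5.08% lower) and large ones 4.41% (2.02% higher, 2.39% lower). Of the 308 probe sets higher in medium granulosa 173 (56.2%) were also called higher in small follicles, which is 24.7% of the small list, and 62 (20.1%) in large ones, 17.8% of the large list. Of the 726 lower ones 538 (74.1%) were also called lower in small follicles, 61.5% of that list, and 290 (39.9%) in large ones, 70.4% of that list. In all 3 sizes 47 were called higher and 251 lower.

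The size of the layer difference itself was tested between follicle sizes. Between medium and small follicles limma called 0 probe sets. Of the 17236 tested 433 had an unadjusted p under 0.05, fewer than that threshold would pass if no probe set differed. Between medium and large follicles 1297 passed the unadjusted threshold. There limma called 4 (0.0232% of those tested), all with a more negative change in medium follicles. They were UCP2, a mitochondrial carrier, IGHM, the heavy chain of immunoglobulin M, a second probe set of IGF2 and an unnamed probe set. UCP2 gave 7.6 and 7.3 in medium granulosa against 100.1 and 130.8 in medium theca (-2.48 ± 0.37), and 213.6 and 94.7 in large granulosa against 45.5 and 39.9 in large theca (1.44 ± 0.37). The difference was -3.92 ± 0.53 (adjusted p = 0.0336). IGF2 on that probe set gave 62.9 and 70.7 against 1577.5 and 1902.8 in medium follicles (-4.40 ± 0.36), and 247.0 and 396.0 against 593.7 and 652.2 in large ones (-0.96 ± 0.36). The difference was -3.45 ± 0.51 (adjusted p = 0.0446), and its brighter probe set gave -2.91 ± 0.53 (adjusted p = 0.167). The count of 4 became 0 without granulosa large replicate 1 and 67 without granulosa large replicate 2. Leaving out single arrays gave 0 to 67, and leaving out both arrays that stood apart gave 1.

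Other genes had different values in large follicles without passing the test of the difference. The median of the 14 endothelial markers tested was -2.38 in medium, -2.30 in small and -0.44 in large follicles. ENG gave -3.33, -2.51 and -0.37 (adjusted p of medium minus large = 0.185). CYP19A1 gave 2.48 in medium, 1.41 in small and -0.15 in large follicles (adjusted p = 0.45), and INHBA 1.83, 2.78 and 0.03 (adjusted p = 0.545). CCL14 gave -4.18, -3.49 and -0.70 (adjusted p = 0.09). White cell markers had medians of -0.34 in medium, -1.0 in small and 1.52 in large follicles. PTPRC, the common antigen of white cells, gave 597.4 and 141.9 in large granulosa against 62.4 and 17.1 in medium granulosa. Their part in the large follicle values was not tested. KRT18, CYP17A1, INSL3 and OGN were called in the same direction in all 3 sizes.

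**Figure D5:**
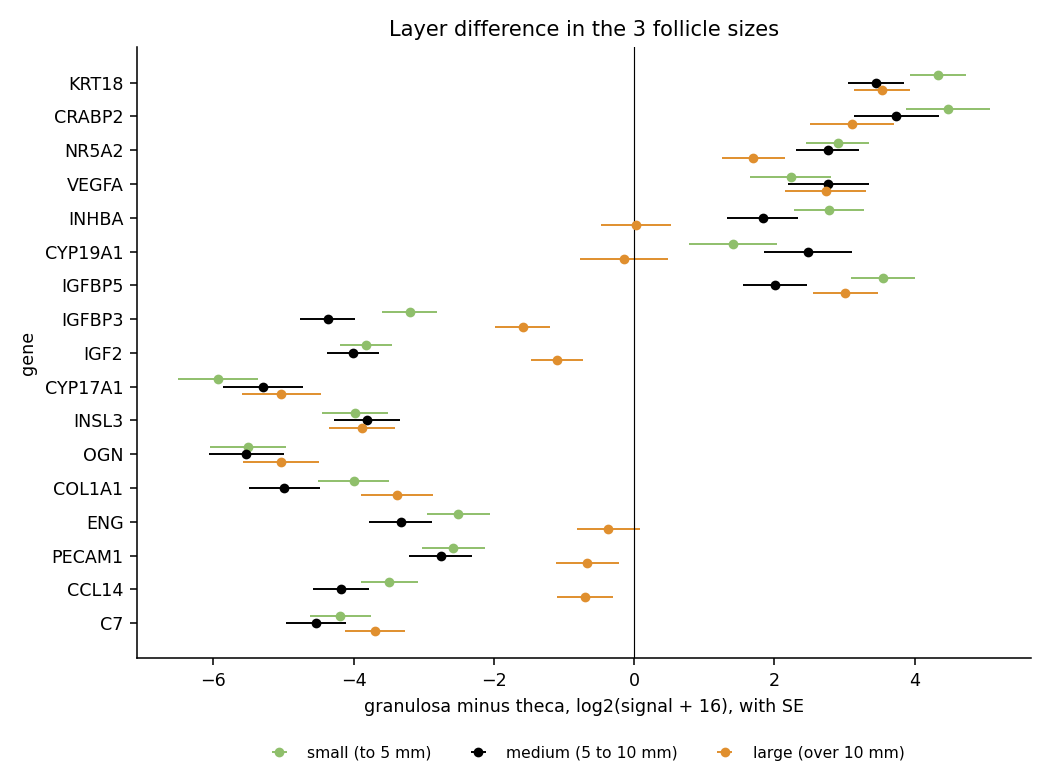
Granulosa minus theca on the log2(signal + 16) scale for 17 genes in small (green), medium (black) and large (orange) follicles; points are means of 2 arrays against 2 and bars the SE. CYP17A1 lies at -5.94, -5.29 and -5.03, whereas IGF2 lies at -3.82, -4.01 and -1.10.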

How the data were processed

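Signals of 12 Affymetrix bovine arrays were used. The deposited values are array intensities on a linear scale, scaled by the authors, since every array had a 2% trimmed mean of 125.03 to 125.04. The software behind them is not given in the sources used here. Scan dates, detection calls and sequences were not analysed here. Of 24128 probe sets, 112 controls were left out. The platform annotation gave 1 symbol to 13292 of the remaining 24016, several to 86 and none to 10638. The ARS-UCD2.0 gene table, used for names alone, held 13263 of the named ones. Signals were turned into log2(signal + 16). Probe sets with a group mean above the 40th percentile (a signal of 22.5) were tested, 17236 for 7893 genes. limma 3.58.1 in R 4.3.3 fitted a mean per group over all 12 arrays (6 residual and 7.92 prior degrees of freedom). The procedure was tested on simulated data. With 2 arrays against 2, an exact permutation test (two-sided) cannot go below p = 0.333.

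Groups came from the titles. Members and the 38 gene lists (556 of 761 genes with a probe set) were chosen with earlier results of these data known. Named genes were 14 key genes (KRT18, INSL3, AMH, FSHR, LHCGR, STAR, CYP11A1, CYP17A1, CYP19A1, HSD17B1, HSD3B1, FST, INHBA and INHA), the 12 largest called changes each way without overlap, up to 6 called members per list, and the largest called differences between sizes; members of marker, steroid, IGF, ID, hedgehog and retinoid lists could be named uncalled. Others that are uncalled were named after their values were seen. Alternatives were a pseudocount of 1 or 64, no filter or the 60th percentile, quantile normalization, median centring, the compared arrays alone, trend and robust moderation, a replicate block, leaving out both arrays that stood apart, and leaving out each array. Figures were drawn with matplotlib under Python.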

Additional observations from a re-analysis of the deposited data

Results flagged for a closer look

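The layer difference (granulosa minus theca) differed between medium and large follicles, by limma's test of that difference itself, for 4 probe sets. UCP2 differed by -3.92 ± 0.53 (adjusted p = 0.0336). IGHM, the immunoglobulin M heavy chain, differed by -4.07 ± 0.57 (adjusted p = 0.0336), with 67.2 and 30.2 in medium granulosa against 221.6 and 121.8 in medium theca, and 682.1 and 636.0 in large granulosa against 141.2 and 72.0 in large theca. The second IGF2 probe set differed by -3.45 ± 0.51 (adjusted p = 0.0446). A probe set without a gene name differed by -4.01 ± 0.57 (adjusted p = 0.0336), with 29.0 and 23.3 against 597.2 and 333.2 in medium follicles and 405.4 and 291.7 against 265.1 and 197.9 in large ones. UCP2, IGF2 and the unnamed probe set stayed called without 3 of the 12 single arrays, and IGHM without 4, so each depended on the arrays kept.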

How the results depend on the processing

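With 2 arrays per group the number of arrays limits precision. The count of 1034 stayed within 1.5 times under 9 of the 10 alternatives of processing or sample choice, from 706 with a pseudocount of 1 (646 of the 1034 kept) to 1380 with the compared arrays alone. It was 1600 without both arrays that stood apart. Leaving out 1 array gave 360 to 1301, where the lone array of a group is assumed to vary like the other groups. For medium minus small the count was 0 in every alternative except without theca small replicate 2, so single arrays gave 0 to 1. For medium minus large the count of 4 became 0 with a pseudocount of 1, with one of 64, with no filter and with the compared arrays alone, and 1 without both arrays that stood apart, and single arrays gave 0 to 67. Deviations of same-numbered arrays from their group means correlated from -0.33 to 0.40 between groups. No common pairing was seen, but these values cannot exclude that pools shared animals. With a replicate block 995, 0 and 5 probe sets were called. Of 138 called genes followed, 0 reversed under any alternative, but most alternatives could not reverse a sign. The medium arrays of the layers did not overlap for any of the 308 higher and 726 lower calls. A reversal was therefore possible only under quantile normalization or median centring. Among the 138 genes a pseudocount of 1 ended 42 calls, one of 64 ended 25, no filter 19, quantile normalization 8, and each other processing alternative 5 or fewer. The cause was not tested.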
